A study of Oncorhynchus mykiss with 9 samples.

Results

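Severe hypoxia was compared with moderate hypoxia in rainbow trout (Oncorhynchus mykiss) head kidney, both sampled after 12 h. A gene row was analysed where either hypoxia group averaged 10 counts or more per library, which held for 28419 of the 44219 rows deposited. All rows with the same gene symbol were also added up, giving 13433 symbols, of which 6666 had several rows. The rainbow trout genome carries many duplicated genes, so several rows often stand for copies of what is a single gene in mammals, and values below are such symbol sums unless a row is named. Of the analysed rows, 24753 had a symbol and 1756 were loci assembled by the authors.

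The study holds 9 libraries in 3 groups of 3. The severe group was kept at 3.0 mg/L dissolved oxygen and the moderate group at 4.5 mg/L, each for 12 h, and the normoxic controls at 8.5 mg/L were labelled 0 h. All fish were full siblings of about 130 g, acclimatised for 2 weeks in water of 12 °C, and assigned to groups at random, per the labels. Oxygen was lowered with nitrogen, and fish were anaesthetised with MS-222 before the organ was taken. The controls differ from both hypoxia groups in sampling time and serve here as a printed level and as the reference of the scaling. No transgene is named. The labels do not say whether a library was made from 1 fish or from pooled fish.

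The head kidney of bony fishes forms blood cells and antibody-producing cells. Steroid-making interrenal cells and chromaffin cells lie among them, in place of a separate adrenal gland. When oxygen is short, prolyl hydroxylases of the egln family lose activity, the alpha subunits of the hypoxia-inducible factor (HIF) are spared from degradation, and HIF drives genes of glucose uptake, mitophagy and blood vessel growth. Cells that lack oxygen also tend to restrain growth and division, which are costly in energy.

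The deposited file gives, per gene, 1 mean estimated count per library and 1 FPKM value (fragments scaled to gene length and library size) for each group. The spread between fish is therefore unknown. Differences are therefore given without p-values or any check between fish. A gene was counted as higher or lower when the ratio of scaled counts was at least 2-fold. Totals were 15246482, 15301518 and 14700244 mean counts per library in normoxia, moderate and severe hypoxia. Globin transcripts held 4.12% of counts in moderate (Wilson 95% interval 4.11 to 4.12) and 7.37% in severe hypoxia (7.37 to 7.38), against 13% in normoxia. Mitochondrially encoded transcripts held 2.36% and 4.24% in the hypoxia groups. By the trimmed mean of M values, moderate counts were divided by 1.62 and severe counts by 1.22, so that a severe count weighs more than an equal moderate count. Totals without globin and mitochondrial genes gave divisors of only 1.15 and 1.04, a smaller correction. On library totals every log2 ratio is 0.35 lower and the median symbol stood at -0.36, so that gene calls of a modest upward ratio are lost. Levels printed below are the deposited counts before scaling, while folds and log2 ratios follow scaling. Intervals are exact 95% counting intervals, which leave out variation between fish.

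Of the gene rows, 8.73% were at least 2-fold higher in severe hypoxia (2481 rows) and 10.5% at least 2-fold lower (2996 rows). Of the symbols, 6.63% were higher (890) and 8.4% lower (1128). These shares are the background against which the counts of each gene group are set. The middle 50% of symbols lay between log2 ratios of -0.45 and 0.41, and 90% lay between -1.21 and 1.13. Large ratios were more often upward, since 139 symbols were at least 4-fold higher and 86 at least 4-fold lower, and 51 were at least 8-fold higher against 14 lower. On library totals the split turned further downward, with 399 symbols higher and 2282 lower, and 14.9% of the symbols past 2-fold were higher in place of 44.1%. Just inside the count threshold, the 332 rows whose larger mean count lay from 10 to under 11 had a median log2 ratio of 0.03. Just outside it, the 414 rows from 9 to under 10 had a median of 0.07. A gene under 10 counts in either hypoxia group was analysed only through the other, where its count was higher.

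**Figure D1:**
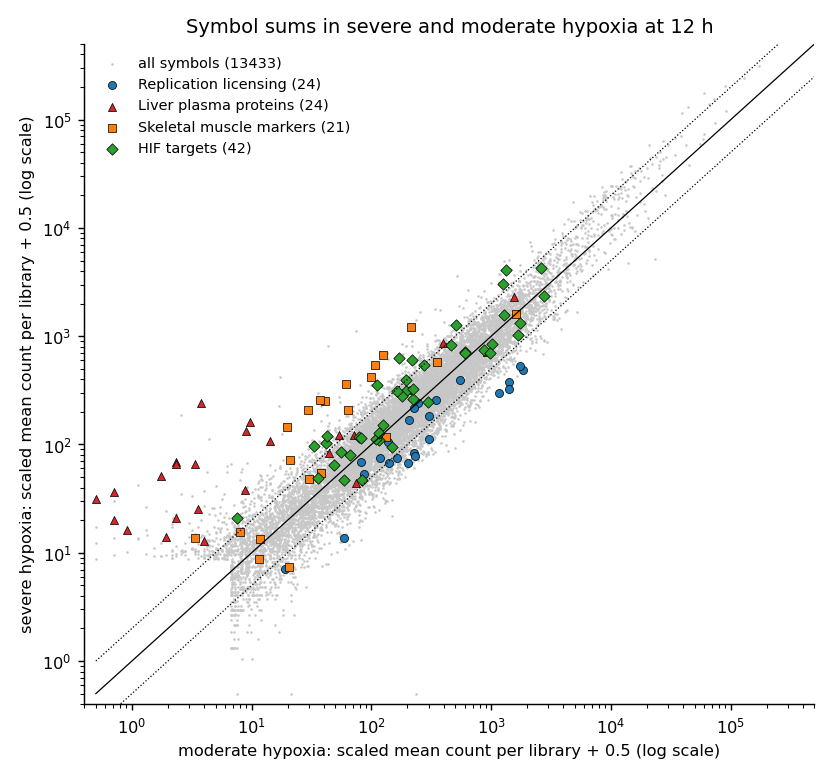
Scaled mean counts per library in moderate (x axis) and severe hypoxia (y axis) for each of 13433 symbols, on log axes after adding 0.5. The solid line marks equal levels and the dotted lines 2-fold differences: replication licensing genes (circles) lie mostly below the diagonal, HIF targets (diamonds) mostly above it, and liver (triangles) and muscle (squares) markers far above it at low counts.

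Target genes of HIF stood higher as a group in severe hypoxia, while the 10 regulators of HIF were split, 5 above 0 and 5 below. Of the 42 HIF targets analysed, 11 were at least 2-fold higher (26.2%, background 6.63%) and 0 lower, and the median log2 ratio was 0.48, against -0.01 for all symbols. On library totals 7 were higher and 2 lower, with a median of 0.13. The targets past 2-fold differ in what they do: glucose uptake, mitophagy, restraint of growth and the sensing of oxygen itself.

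The egln genes encode the oxygen-sensing prolyl hydroxylases, of which egln3 and egln1 are also HIF targets. The egln3 transcript was at 71.7 counts in normoxia, 274 in moderate and 766 in severe hypoxia, 3.71-fold higher in severe than in moderate (counting interval 3.42 to 4.02), and its 2 rows had log2 ratios of 2.06 and 1.69. The 3 levels thus stood in the order of falling oxygen. The egln1 transcript, the main isoform under normal oxygen in mammals, was at 83.0, 200 and 305 counts, 2.02-fold higher (1.82 to 2.24). The third isoform, egln2, was at 1007 and 949 counts in moderate and severe hypoxia, 1.25-fold higher (1.19 to 1.32) but at -0.03 on the log2 scale on library totals. Those enzymes act on the alpha subunits of HIF, and 2 of their genes were lower in severe hypoxia: hif1a was at 3574 and 2271 counts, 1.19-fold lower (1.15 to 1.22), and epas1, which encodes HIF-2 alpha, at 423 and 212 counts, 1.51-fold lower (1.37 to 1.66). A further symbol, hif1al2, picked out after its values were seen, was at 435, 314 and 997 counts, 4.22-fold higher (3.92 to 4.54). HIF alpha is controlled largely at the protein level, which was not measured.

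Among the targets, slc2a1, the widely expressed glucose transporter, was at 101 counts in normoxia, 180 in moderate and 428 in severe hypoxia, 3.15-fold higher in severe than in moderate (2.85 to 3.49). The transporter gene slc2a3 went the other way at 1574 and 847 counts, 1.40-fold lower. The mitophagy receptor bnip3, which tags mitochondria for removal, was at 3670, 2130 and 5034 counts, so that its moderate level was the lowest of the 3. Its 5 rows had log2 ratios between 0.91 and 2.60. The related bnip3l was at 2657, 2012 and 3675 counts, 2.42-fold higher in severe than in moderate (2.35 to 2.50). Of the others, ankrd37 was at 350 and 738 counts (2.80-fold), mxi1, a MYC antagonist, at 818 and 1550 (2.51-fold), and ddit4, an inhibitor of mTORC1, at 313 and 476 (2.02-fold). On library totals egln1, bnip3l, mxi1 and ddit4 were under 2-fold, at log2 ratios of 0.67, 0.93, 0.98 and 0.66. The oxygen-linked cytochrome oxidase subunit cox4i2 was at 68.3 and 144 counts, 2.80-fold higher (2.36 to 3.32).

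Blood vessel growth factors showed smaller differences. Both vegfa, at 126 and 143 counts, and vegfaa, at 263 and 380, encode vascular endothelial growth factor A, and their log2 ratios were 0.59 and 0.94. The collagen-modifying lysyl hydroxylase plod2 was at 135 and 56.3 counts (log2 ratio -0.85), and hexokinase hk2 at 2717 and 1251 counts, -0.71.

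Glycolytic enzymes were split. Of 30 symbols, 7 were at least 2-fold higher (23.3%, background 6.63%) and 0 lower, while the median was 0.08 (-0.27 on library totals). Several of the 7 are the muscle forms of their enzymes in vertebrates: pfkm, at 108 counts in normoxia, 10 in moderate and 79.3 in severe hypoxia, pgam2, at 492, 70.7 and 191, eno3, at 882, 173 and 295, and ldha, at 353, 52.7 and 118. Each of these 4 was lowest in moderate hypoxia and highest in normoxia. The ldha gene is also counted among the 11 HIF targets that were higher. The enolase gene eno1, also among the 7, was at 3985, 1920 and 4546 counts, 3.14-fold higher (3.05 to 3.24). It stayed past 2-fold on library totals and with the trend by gene length removed, at log2 ratios of 1.30 and 1.47. The most abundant members differed little, with gapdh at 18359 and 12220 counts (log2 ratio -0.18), pkm at 22887 and 13616 (-0.34) and gpia at 30686 and 20421 (-0.18). Skeletal muscle markers summed to 418 FPKM in normoxia, 108 in moderate and 303 in severe hypoxia. Their part in the glycolytic values was not tested.

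**Figure D2:**
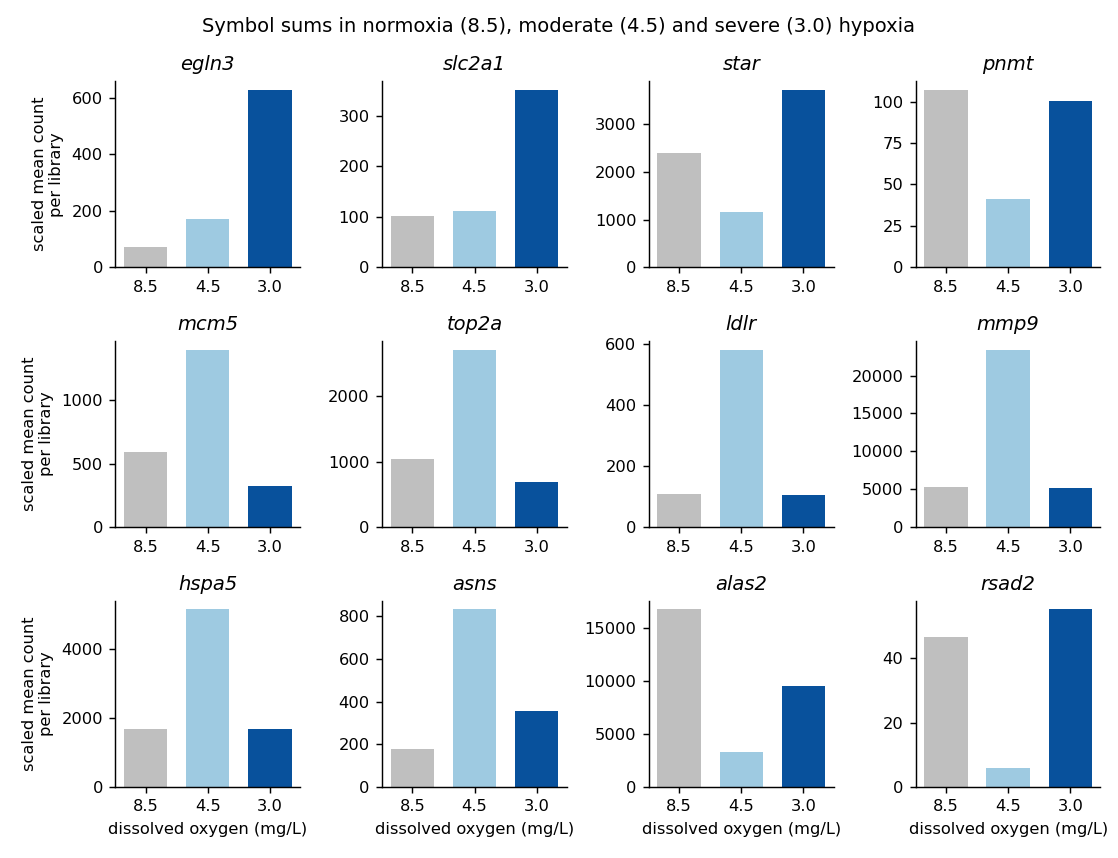
Scaled mean counts per library (bars from 0) of 12 symbols at dissolved oxygen of 8.5 mg/L (normoxia), 4.5 mg/L (moderate) and 3.0 mg/L (severe hypoxia), 1 value per group with no error bar because the file holds no value per library. The egln3 bars stand in the order of falling oxygen, star, pnmt, alas2 and rsad2 are lowest in moderate hypoxia, and mcm5, top2a, ldlr, mmp9, hspa5 and asns are highest there.

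Transcripts of stress hormone synthesis stood above 0 for most genes of both pathways. At least 2-fold higher were 3 of 13 cortisol genes (23.1%, background 6.63%) and 1 of 8 catecholamine genes (12.5%). On library totals these counts were 1 and 0. In the interrenal cells cholesterol enters mitochondria and is turned into cortisol by a chain of enzymes. The star protein, which brings cholesterol to the inner mitochondrial membrane, was represented by 2405, 1875 and 4536 counts in normoxia, moderate and severe hypoxia. The side-chain cleavage enzyme cyp11a1, which makes pregnenolone, was at 184, 197 and 306 counts, 2.05-fold higher in severe than in moderate (1.85 to 2.28). Next in the chain, hsd3b1 was at 1511, 1066 and 1909 counts, 2.38-fold higher (2.27 to 2.48). The later enzymes showed smaller ratios: cyp21a2 stood 1.70-fold higher (1.62 to 1.79), cyp11b, which completes cortisol, 1.60-fold (1.49 to 1.73), and cyp17a1 1.47-fold (1.33 to 1.63). The corticotropin receptor mc2r was at 30.2 and 32.9 counts, 1.45-fold higher (1.07 to 1.94), and hsd11b2, which inactivates cortisol, at 230.0 and 158 counts, with a log2 ratio of -0.13. In all, 12 of 13 members stood above 0 with a median of 0.68 (0.33 on library totals, 0.59 with the trend by gene length removed). On library totals star was past 2-fold, while hsd3b1 and cyp11a1 were at 0.90 and 0.69. Since the tissue is a mixture, fewer cells of a type and less RNA per cell cannot be told apart, here and in all groups below.

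Chromaffin cells turn tyrosine into adrenaline in 4 steps, by th, ddc, dbh and pnmt. All 8 catecholamine genes analysed stood above 0 (median 0.50, and 0.15 on library totals), and pnmt passed 2-fold (0.94 on library totals). The last enzyme of the pathway, pnmt, was at 107 counts in normoxia, 66.3 in moderate and 122 in severe hypoxia. The earlier steps differed less: dbh was 1.65-fold higher (1.53 to 1.79), th 1.30-fold (1.10 to 1.53), and ddc 1.11-fold (0.856 to 1.43), an interval that includes 1. On library totals th and ddc stood at log2 ratios of 0.02 and -0.21.

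Cholesterol, the substrate of steroids, is taken up through the LDL receptor or made in the cell. The receptor gene ldlr was at 109 counts in normoxia, 940 in moderate and 129.7 in severe hypoxia, 5.46-fold lower in severe than in moderate (4.91 to 6.09). Its 4 rows all stood below 0, between -3.34 and -0.31. The list of 23 genes of cholesterol synthesis and uptake did not share that size of difference, with a median of 0.04 (-0.31 on library totals), 0 members at least 2-fold higher and 1, ldlr, lower.

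Target genes of the cortisol receptor did not stand apart as a group, with 2 of 14 at least 2-fold higher and 1 lower (median 0.05, and -0.30 on library totals). The co-chaperone fkbp5, a common reporter of cortisol action, was at 219, 2007 and 1559 counts, and its log2 ratio between the hypoxia groups was 0.04. The metallothionein mt2 was 2.51-fold higher (2.28 to 2.76), and the clock gene per1 2.01-fold lower (1.81 to 2.23). On the log2 scale mt2 stood at 0.98 on library totals and 0.48 with the length trend removed. With that trend removed per1 was under 2-fold as well, at -0.75.

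Genes of DNA replication and cell division were lower in severe hypoxia, from the licensing of origins to mitosis. Of 24 genes that license replication origins, 13 were at least 2-fold lower (54.2%, background 8.4%) and 0 higher, with a median log2 ratio of -1.11. Of 23 replication fork genes, 13 were lower and 0 higher (median -1.01). Of 11 genes that supply deoxynucleotides, 6 were lower and 0 higher (median -1.05), and of 31 mitosis genes 16 were lower and 0 higher (median -1.01). With the trend by gene length removed, described further on, these medians were -1.20, -1.19, -1.26 and -1.01 in the same order.

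The mcm genes encode the 6 subunits of the helicase that opens DNA. The mcm5 transcript was at 593 counts in normoxia, 2264 in moderate and 397 in severe hypoxia, 4.30-fold lower in severe than in moderate (4.04 to 4.57), and mcm3 at 436, 1883 and 365, 3.88-fold lower (3.64 to 4.15). The severe level lay below the normoxic level as well as the moderate one for both. The subunits mcm4, mcm2 and mcm7 were 3.75-fold, 3.73-fold and 3.28-fold lower. The symbol mcm6 held few reads, at 30 and 8.00 counts, 2.83-fold lower (1.79 to 4.64). Under 10 counts in severe hypoxia, it was analysed through the moderate group alone. A row named zmcm6-a, after the zygotic mcm6 form of Xenopus and picked out after its values were seen, was at 734, 2640 and 524 counts (log2 ratio -1.92).

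At the fork, the polymerase subunit pola1, which starts new strands, was at 141, 796 and 152 counts, 3.95-fold lower (3.57 to 4.37). The sliding clamp pcna was at 2437, 5699 and 1729 counts (log2 ratio -1.31). Of the enzymes that make DNA building blocks, rrm1, the large subunit of ribonucleotide reductase, was 3.10-fold lower (2.99 to 3.22), tyms 2.77-fold (2.60 to 2.96) and dhfr 2.67-fold (2.23 to 3.20). In mitosis, top2a, which untangles chromosomes, was at 1045, 4396 and 843 counts, 3.93-fold lower (3.77 to 4.10), and the proliferation marker mki67 at 2122, 6167 and 1420, 3.27-fold lower (3.17 to 3.39). The exception among licensing genes was orc6, at 348 and 389 counts, with a log2 ratio of 0.57.

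**Figure D3:**
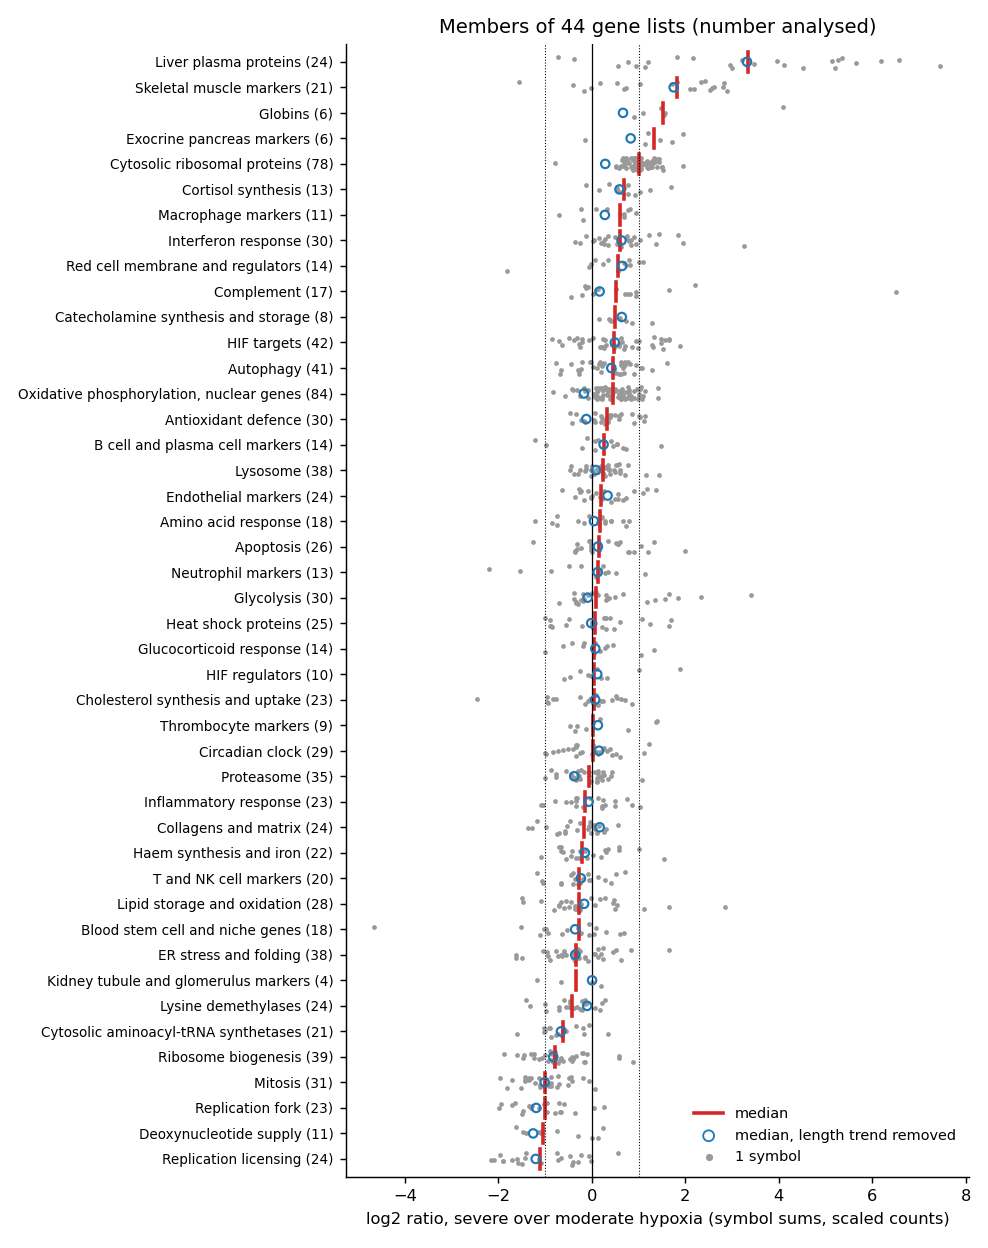
Log2 ratios of severe over moderate hypoxia (x axis) for the members of 44 gene lists (rows, with the number of symbols analysed), each grey point 1 symbol. Red bars are list medians, open circles the medians after the trend with gene length is removed, and dotted lines 2-fold differences. The 4 lists of replication and mitosis have medians near -1, liver and muscle markers the highest medians at 3.34 and 1.81, and the circles of globins, ribosomal proteins and oxidative phosphorylation lie well to the left of their bars.

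Genes for protein folding and for building ribosomes included several of the larger differences, with counts that depended on the scaling. Chaperones of the endoplasmic reticulum (ER) help secreted proteins fold and are induced when unfolded protein builds up. The chief chaperone hspa5, also called BiP, was at 1680, 8350 and 2041 counts in the 3 groups, 3.08-fold lower in severe than in moderate (3.00 to 3.17), and its 2 rows were at -1.58 and -1.97. Its cofactor dnajb11 was 3.10-fold lower (2.84 to 3.39), manf, a secreted stress-protective factor, 2.81-fold (2.61 to 3.03), and eif2ak3, the sensor kinase PERK, was at 506 and 186 counts, -1.04. Across the ER list, the median was -0.34, and 4 of 38 members passed 2-fold downward (10.5%, background 8.4%) and 1 upward, against 10 and 1 on library totals. The 1 that was higher was ddit3, which encodes the pro-apoptotic factor CHOP, at 224, 107 and 251 counts, 3.12-fold (2.73 to 3.56). Its direction was thus opposite to that of the chaperones.

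Of the genes that respond to a lack of amino acids, asparagine synthetase asns was at 179, 1348 and 434 counts, 2.34-fold lower in severe than in moderate, and was the 1 member of 18 past 2-fold. The list had a median of 0.17, and of -0.18 on library totals. The enzymes that load amino acids onto tRNA were below 0 in 20 of 21 cases (median -0.62). At least 2-fold lower were 3 (14.3%, background 8.4%, and 9 on library totals), led by aars1 at 268, 1369 and 339 counts (3.04-fold, 2.84 to 3.26). Factors that build ribosomes had a median of -0.78 and 10 of 39 members past 2-fold, each of them lower (25.6%, background 8.4%, and 24 on library totals). Among them were utp20, at 162, 614 and 126 counts (3.68-fold, 3.30 to 4.13), and the RNA polymerase I subunit polr1a (2.46-fold, 2.18 to 2.77).

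The structural proteins of the ribosome stood the other way. The median of 78 ribosomal protein genes was 1.01, and 42 of them passed 2-fold, each upward (53.8%, background 6.63%, and 9 on library totals). Among them rpl38 was at 6302, 2053 and 6018 counts, 3.89-fold higher (3.78 to 4.00). Ribosomal protein genes are short, with a median length of 670 bases. With the length trend removed their median was 0.29, and 1 of 78 was past 2-fold in each direction. The proteasome, which degrades proteins, had a median of -0.05 over 35 genes (-0.40 on library totals and -0.38 with the trend removed).

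Gene length went with the ratio across the whole table. Length was derived from the deposited count and FPKM of each gene. Over 13425 symbols the rank correlation between length and log2 ratio was -0.39, given as a description since all symbols share the same libraries. The shortest 10% of symbols, of 168 to 1303 bases, had a median of 0.59 and 21.4% of them were at least 2-fold higher. The longest 10%, of 6048 bases and more, had a median of -0.45 and 18.2% were at least 2-fold lower. The source of the trend was not tested.

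**Figure D4:**
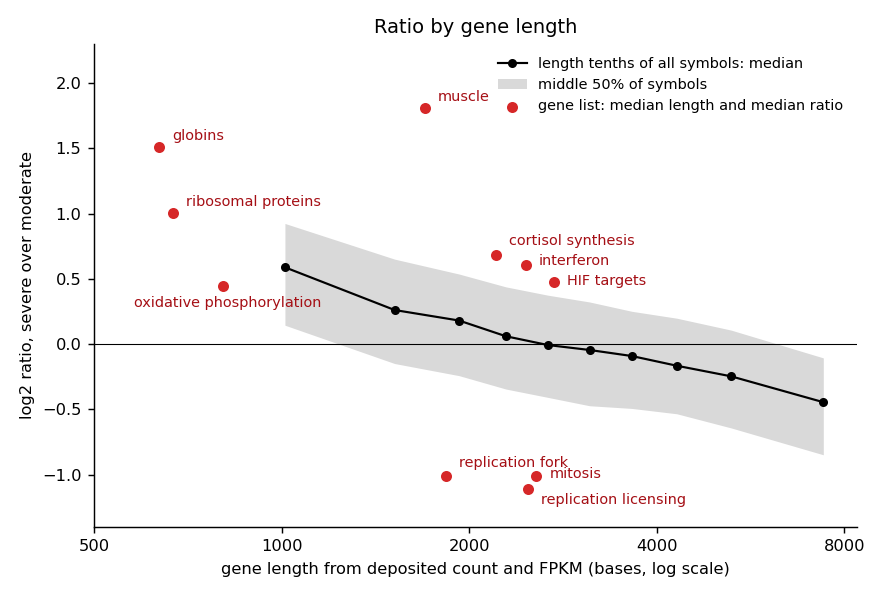
Median log2 ratio of severe over moderate hypoxia (y axis) in 10 equal groups of symbols by gene length (x axis, bases, log scale), with the middle 50% of symbols shaded, and the median length and ratio of 10 gene lists as red points. The line falls from 0.59 in the shortest 10% to -0.45 in the longest 10%, and the replication and mitosis lists lie far below it at ordinary lengths.

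Respiratory chain genes changed side with the length trend removed. The 84 nuclear genes of oxidative phosphorylation had a median of 0.44, with 10 past 2-fold upward (11.9%, background 6.63%) and 0 downward. With the trend removed the median was -0.17, with 0 past 2-fold upward and 1 downward. The inhibitor of ATP synthase atp5if1a was at 608, 242 and 487 counts, 2.67-fold higher (2.44 to 2.92), and 0.57 on the log2 scale with the trend removed. All 13 mitochondrially encoded genes stood above 0, between 0.33 and 1.60 with a median of 0.86, and COX1, COX2 and COX3, the catalytic core of cytochrome oxidase, were the 3 past 2-fold. On library totals 11 of the 13 stood above 0, and COX2 was the 1 past 2-fold. Antioxidant genes had a median of 0.33 over 30 symbols, which became -0.02 on library totals and -0.12 with the trend removed. Of its 4 members past 2-fold (0 on library totals), gclc, which limits glutathione synthesis, was at 528 and 806 counts, 2.03-fold higher (1.90 to 2.16), and stood at 1.09 on the log2 scale with the trend removed.

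Globin transcripts were higher in severe than in moderate hypoxia, and highest in normoxia. Of 22 globin rows analysed, 19 were at least 2-fold higher (background 8.73% of rows), with log2 ratios from 0.74 to 5.05. On library totals 12 were, and with the length trend removed 6. Summed over rows, hbb was at 316644 counts in normoxia, 118330 in moderate and 189850 in severe hypoxia, 2.13-fold higher (2.12 to 2.14), and hba at 139247, 33673 and 70600, 2.78-fold higher (2.76 to 2.80). Globin genes are among the shortest, and with the length trend removed their list median of 1.51 became 0.67, with 1 of 6 symbols past 2-fold in place of 5. In that setting hbb stood at 0.24 and hba at 0.63, both under 2-fold, and hbb was at 0.74 on library totals. The enzyme that starts haem synthesis in red cells, alas2, is longer. It was at 16755, 5294 and 11658 counts, 2.92-fold higher, and 1.43 in place of 1.55 on the log2 scale with the trend removed.

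The remaining erythroid genes were split between haem enzymes and genes of the red cell membrane and its regulators. The later enzymes of haem synthesis stood at or below 0, with fech, which inserts the iron, at 1837 and 877 counts (-0.66), hmbs at 2928 and 1498 (-0.56), and urod at 1799 and 886 (-0.61). The transferrin receptor tfr1b, which brings iron into the cell, was at 5309 and 1881 counts, 2.13-fold lower (2.06 to 2.19). With the length trend removed tfr1b was under 2-fold, at -0.85. Of 14 genes of the red cell membrane and its regulators, 11 stood above 0 and 3 below. Their median was 0.56 (0.21 on library totals and 0.65 with the length trend removed). At least 2-fold higher were 2 (14.3%, background 6.63%), and 1 was lower. The band 3 anion exchanger slc4a1 was at 20511, 18534 and 14548 counts, 1.04-fold higher (1.03 to 1.05) but at -0.29 on the log2 scale on library totals. The transcription factor nfe2 was 2.13-fold higher (2.00 to 2.27), and at 0.74 on the log2 scale on library totals. The other member past 2-fold upward, lmo2, was 2.01-fold higher (1.92 to 2.11), and at 0.66 on library totals.

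White blood cell genes differed by cell type and gene. Of the genes listed as neutrophil markers, measured here in the whole organ, mmp9, a matrix-degrading enzyme, was at 5333, 37901 and 6248 counts. It was 4.57-fold lower in severe than in moderate (4.50 to 4.64), and mmp13, at 5512, 22250 and 5756, was 2.91-fold lower (2.87 to 2.96). Both were at nearly the same level in severe hypoxia as in normoxia before scaling. The granule enzyme mpo, at 89768 and 72450 counts, stood at 0.10, and the neutrophil list of 13 had a median of 0.14 (-0.21 on library totals), with 1 higher and 2 lower. The direction of the metalloproteinases was thus not shared by most neutrophil markers, with 8 of the 13 above 0 and 5 below. The receptor cxcr1 was also lower, at 1131 and 463 counts (-0.88, and -1.23 on library totals). In contrast lect2, at 4016 and 6702, stood at 1.15, and at 0.30 with the length trend removed. Of the mmp9 reads nearly all came from 1 row, at -2.21, while the other row, at 195 and 123 counts, was at -0.26.

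Macrophage markers had 0 of 11 past 2-fold either way, with a median of 0.61, and 0.26 on library totals. T and NK cell markers had a median of -0.28 over 20 symbols, with 3 lower (15%, background 8.4%) and 0 higher. With the length trend removed 1 was lower. Of the 20, 15 stood below 0 and 5 above, among these cd8a at 0.72. Among the 3 lower, rag1, needed to assemble antigen receptors of B cells as well as T cells, was at 318 and 106 counts (2.26-fold, 1.99 to 2.57). With the length trend removed rag1 was just under 2-fold, at -0.999. B cell genes were split: igll1, annotated as an immunoglobulin light chain component, was 2.78-fold higher (2.68 to 2.89), while cxcr5, which guides B cells to follicles, was at 4.33, 248 and 80.7 counts, 2.31-fold lower (2.00 to 2.69). The B cell identity factor gene, listed as pax-5, was at 3.33, 237 and 26 counts, 6.88-fold lower (5.44 to 8.81), whereas cd79a, a signalling chain of the B cell receptor, was at 2003 and 2206, 1.46-fold higher. Among stem cell and niche genes, 4 of 18 were lower (22.2%, background 8.4%) and 0 higher (median -0.28). The progenitor factor myb was among the 4 (2128 and 792 counts, 2.02-fold, 1.93 to 2.12). With the length trend removed myb was just under 2-fold, at -0.99. The chemokine cxcl12b, which keeps stem cells in their niche, had no counts in normoxia or severe hypoxia and 33.4 in moderate. With severe set at 3 counts over the group, it was 25.1-fold below moderate. It is among the 4 lower genes and was analysed through the moderate group alone, so its place there rests on the group where it was high.

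Interferon response genes stood higher in severe hypoxia in 27 of 30 cases, with a median of 0.61 (0.26 on library totals and 0.63 with the length trend removed). Of the 30, 7 were at least 2-fold higher (23.3%, background 6.63%). The antiviral gene rsad2, or viperin, was at 46.7, 9.33 and 67.3 counts, 9.57-fold higher (6.43 to 14.8). With under 10 counts in moderate, rsad2 was analysed through the severe group alone, so its log2 ratio could only lie above 0. A row named vig1, the older trout name of the same gene and picked out after its values were seen, was at 337, 61.0 and 278 counts, 6.04-fold higher (5.14 to 7.13). Further members were ifit10 at 53.7, 27.0 and 73.3 counts (3.60-fold, 2.78 to 4.71) and mx at 51.7, 43.1 and 84.1 (2.59-fold, 2.09 to 3.23). In each of these the moderate group was the lowest. Inflammatory genes showed no such shift, with a median of -0.14, 1 of 23 higher and 2 lower, and il1b at 134 and 110.0 counts, with a log2 ratio of 0.13.

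Transcripts of organs other than the head kidney gave the highest ratios of all. For 24 plasma proteins made by the liver, the median log2 ratio was 3.34 (3.32 with the length trend removed). Of these genes 19 passed 2-fold, each upward (79.2%, background 6.63%). On FPKM with a pseudocount of 1, which weighs these low counts less, the median was 0.77. The apolipoprotein apoa2 was at 229, 5.33 and 294 counts, 73.2-fold higher in severe than in moderate (44.8 to 129), the fibrinogen chain fga at 67.7, 3.00 and 83.3, 36.9-fold (19.1 to 81.5), and haptoglobin hp at 38.0, 3.00 and 80.0, 35.4-fold (18.3 to 78.3). Haemopexin hpxa was at 0 counts in moderate and 38.0 in severe hypoxia, 50.4-fold higher with moderate set at 3 counts over the group. In moderate hypoxia 4 of the 24 genes were at 1 count or fewer per library. In normoxia and severe hypoxia 0 of the 24 were so low. For severe hypoxia the count threshold partly fixed this. A gene that low in moderate was analysed only with 10 counts or more in severe. Members under 10 counts in moderate, among them apoa2, fga, hp and hpxa, entered through the severe group alone. Their log2 ratios could only lie above 0. The list summed to 172, 157 and 234 FPKM, a sum in which ambp and fetub, at 2523 and 638 counts in moderate hypoxia, weigh most.

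Muscle markers were similar in pattern, with 13 of 21 at least 2-fold higher (61.9%, background 6.63%) and 1 lower (median 1.81). Creatine kinase ckm was at 1911, 343 and 1483 counts, 5.73-fold higher (5.35 to 6.14), and fast troponin tnni2 at 505, 47.3 and 252, 7.05-fold higher (5.89 to 8.50). The giant proteins of the sarcomere did not reach 2-fold, with ttn at 212 and 141 counts (-0.18) and neb at 60.0 and 65.7 (0.54). Long genes stood lower across the table, with a median of -0.45 in the longest 10%, and the ttn and neb values are not corrected for that. The parvalbumin pvalb1 was at 2020, 69.7 and 993 counts, 18.9-fold higher (16.4 to 21.9). A row of pvalb2 went the other way, at 6.61, 162 and 2.86 counts, 42.7-fold lower (21.3 to 89.6). The 9 rows of pvalb2 together stood at 1.15. Whether reads shifted between parvalbumin copies was not tested. Of the pancreas markers 5 of 6 were higher (median 1.33, and 0.51 on FPKM with a pseudocount of 1), but 4 of the 6 held under 50 counts. On library totals 3 were higher, and with the length trend removed 2. Trypsinogen prss1, at 65.0 and 108 counts, was under 2-fold in both settings, at 0.79 and 0.87. Complement genes, many of them made in the liver, had 3 of 17 higher (17.6%, background 6.63%) and 0 lower (median 0.52, and 0.17 with the trend removed). The liver-made regulator cfh was at 149.6, 3.33 and 227 counts, 90.2-fold higher (48.8 to 189), whereas the abundant c6 was at 19505 and 10814, a log2 ratio of -0.44. With under 10 counts in moderate, cfh also entered through the severe group alone and could only stand higher. Markers of the kidney tubule and glomerulus were scarce in these libraries, and 4 of 17 passed the count threshold (median -0.34, and 0.00 with the length trend removed). Whether liver, muscle and pancreas transcripts came from pieces of neighbouring organs or from head kidney cells was not tested.

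Other stress responses are set against backgrounds of 6.63% of symbols higher and 8.4% lower. Autophagy genes had 4 of 41 higher and 0 lower (9.76%), led by atg12 (3.03-fold, 2.65 to 3.48) and atg101 (2.45-fold, 2.29 to 2.63). Of the 41, 30 stood above 0 and 11 below, with a median of 0.45, and 0.42 with the length trend removed. On library totals the median was 0.10, with 1 higher and 3 lower. Heat shock proteins had a median of 0.06 over 25 symbols, with 4 higher and 1 lower. The inducible hsp70, summed over 9 rows, was at 759, 655 and 1165 counts, 2.36-fold higher (2.23 to 2.49), while the mitochondrial chaperonin hspd1 was at 877, 2447 and 918, 2.01-fold lower (1.92 to 2.10), and the constitutive hspa8, at 96708 and 90262 counts, stood 1.24-fold higher. On library totals hsp70 and atg101 were under 2-fold, at 0.89 and 0.95, and with the length trend removed atg12 and hspd1 were, at 0.75 and -0.95. The hspa8 ratio turned slightly downward on library totals. The lysine demethylases, which need oxygen to act, had 2 of 24 lower (8.33%, near the background) and 0 higher. Their median of -0.42 became -0.10 with the length trend removed. Of these, kdm6ba was at 126, 608 and 172 counts (2.67-fold lower, 2.42 to 2.95) and kdm5c at 204, 1914 and 578 (2.49-fold, 2.36 to 2.63). With the trend removed kdm6ba was under 2-fold, at -0.94, and kdm5c was at -1.06. Endothelial markers had 3 of 24 higher, with egfl7, made by growing vessels, at 510 and 826 counts (2.15-fold, 2.01 to 2.29; 0.75 on the log2 scale on library totals), and a median of 0.20 (-0.15 on library totals). Fatty acid oxidation gene hadha was at 1245 and 444 counts (-1.08), and acaca, which starts fatty acid synthesis, at 281 and 75.7 (2.80-fold lower, 2.41 to 3.26).

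The lists not yet described had few members past 2-fold, beside backgrounds of 6.63% of symbols higher and 8.4% lower. Thrombocyte markers had 2 of 9 higher (22.2%, median 0.02), both of them chains of the same platelet receptor, gp9 and gp1bb. The regulators of HIF had 2 of 10 higher (20%, median 0.05), egln3 and egln1. Haem and iron genes had 2 of 22 higher and 1 lower (median -0.20), B cell genes 1 of 14 higher and 1 lower (median 0.27), and lipid genes 3 of 28 in each direction (median -0.28). Clock genes had 2 of 29 higher and 1 lower (median 0.02), lysosome genes 2 of 38 higher (median 0.24), and apoptosis genes 4 of 26 higher (15.4%) and 1 lower (median 0.16). Matrix genes had 0 of 24 higher and 3 lower (12.5%, median -0.17). These are long genes, with a median length of 6504 bases. With the length trend removed their median was 0.17, with 0 lower. On library totals the thrombocyte, clock, lysosome and apoptosis medians were below 0, at -0.33, -0.33, -0.11 and -0.19, as were those of the HIF regulators and B cell genes, at -0.30 and -0.08.

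Copies of a gene mostly had similar ratios. Among 5238 symbols with at least 2 rows of 50 counts or more, 89 had every such row at least 2-fold higher, 175 had every one at least 2-fold lower, and 24 (0.458%) had rows past 2-fold in opposite directions. For 3921 symbols with exactly 2 such rows, the rows differed by a median of 0.33 on the log2 scale, and 10.4% differed by 1 or more. The widest gaps came from rows that held almost no reads in one group and were analysed only through the other. A row of the elongation factor subunit EEF1B2 was at 6.28 and 1297 counts, 274-fold higher (174 to 452), while both rows together, at 14190 and 26256, stood at 1.30. In the folds that follow, a group at 0 was set at 3 counts over the group. A ferritin gene row, fth1-a, had no counts in moderate and 192 in severe hypoxia, 254-fold higher (counting interval from 206), against 1.84 over 13 rows. In the other direction a timm10 row held 210 counts in moderate hypoxia and none in severe, 158-fold lower (from 129), against -0.98 over 2 rows. A TRIM62 row, at 57.3 and 0, was 43.2-fold lower (from 34.8), against 0.15 over 5. Near-identical copies share reads, so a single row is uncertain, and 72 analysed rows shared all 6 deposited values with another. The symbol eif3b, at 0, 378 and 0 counts, has 1 row, so a shift of its reads to a copy under another name was not tested.

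**Figure D5:**
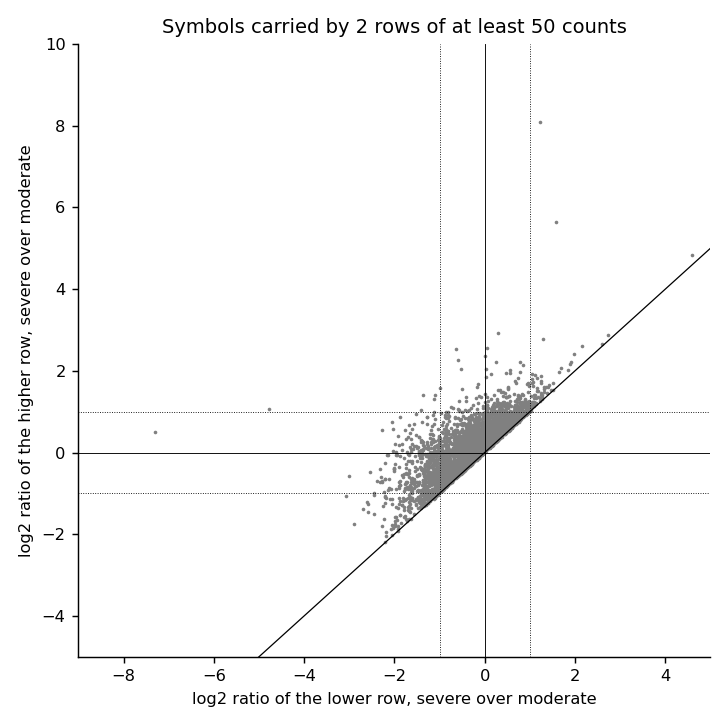
For each of 3921 symbols with exactly 2 rows of at least 50 counts, the log2 ratio of severe over moderate hypoxia of the lower row (x axis) and the higher row (y axis). The solid line marks equal ratios and dotted lines 2-fold differences: most symbols lie close to the line, with a median gap of 0.33, and few reach the upper left, where rows part in opposite directions.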

How the data were processed

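Head kidney RNA was sequenced in 9 libraries, and groups were taken from the treatment in the labels. RNA was extracted with Trizol and libraries were made by standard Illumina protocols, per the labels. Per the file headers, the deposited values are 1 FPKM and 1 estimated count per gene and group; no value per library was used, so the planned count tests could not be run. The deposited counts were taken as means of 3 libraries, because 69.6% to 73.9% of non-zero values were whole within 0.002 after multiplication by 3. The submitters' processing notes list HISAT2 and Bowtie2 2.2.8 without saying what each did. Nothing read here states the counting tool, the genome build, the strand setting or any filter, so reads of overlapping and antisense genes cannot be told apart.

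The table was read by position in 16 fields of 8 characters, and 1985 lines that ran over from descriptions were left out. Symbols are the authors'; 466 cut at 8 characters were left out of the sums because they matched several or no symbols of RefSeq assembly USDA_OmykA_1.1. Letter case was ignored. Scaling used the trimmed mean of M values against normoxia (30% of ratios and 5% of abundances trimmed) over rows of at least 10 counts in any group. A group at 0 was set at 3 counts over the group, so such a fold depends on that setting and is not a strict limit. Clopper-Pearson 95% intervals were computed from group counts multiplied by 3, the number of libraries; they cover counting error only, as no molecular identifiers are named. Python 3.11.15, numpy 2.4.6, pandas 2.3.3, scipy 1.17.1 and matplotlib 3.10.9 were used. The scaling and the calls were run on simulated counts with counting noise only and a small set of genes changed equally up and down. That setting holds no shift in globin or mitochondrial share, no length trend and no variation between fish. It therefore cannot decide between the scalings.

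Members and the 44 gene lists were chosen with earlier results of these data known. Restricting the scaling to rows of 10 counts was also chosen after both versions had been seen. The symbol tf was dropped from the liver list, since the file describes it as tissue factor. The genes named were the 10 symbols of 50 counts or more with the largest ratios each way, up to 4 members per list, a fixed set of genes, and the 5 largest single rows in each direction among symbols with several rows; the text gives a selection. In the fixed set cyp21a2 and cyp11b stood in for cyp21a1 and cyp11b1, and names beginning with zgc: or loc were passed over. Further members of the lists are named as examples chosen after their values were seen. Alternatives were other scalings, count thresholds, folds, FPKM with pseudocounts of 1 and 0.1, single rows, and ratios less the median of 50 bins of gene length.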

Additional observations from a re-analysis of the deposited data

How the results depend on the processing

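Scaling set the split between higher and lower genes. In rows and then in symbols, higher before lower, the counts were 1186, 5576, 399 and 2282 on library totals, 1384, 4855, 465 and 1956 on totals without globin and mitochondrial genes, and 1006, 4615, 334 and 1979 on FPKM with a pseudocount of 0.1. With a pseudocount of 1 they were 472 and 1863 rows and 155 symbols higher. At 1.5-fold they were 5881, 6234, 2378 and 2619, and at 4-fold 416, 401, 139 and 86. A minimum of 50 counts gave 1527 and 1990 rows, and no minimum 4217 rows and 1420 symbols higher. Median-of-ratios factors, scaling between the hypoxia groups, scaling over all rows (chosen after seeing the data) and removal of the length trend kept all 4 counts within 1.5 times.

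Relative to all symbols, 457 of the list medians recomputed under these alternatives moved by less than 0.25 on the log2 scale, 23 by more, and 4 that had been at least 0.25 from that median changed sign: kidney markers, at 0.025 on FPKM with a pseudocount of 1 and 0.015 with the length trend removed, oxidative phosphorylation at -0.16 and antioxidant genes at -0.11, both with the length trend removed. The cause was not tested. A change of scaling shifts all symbols alike, so it could not move a list median relative to all symbols. All 44 list medians stayed the same under each other scaling for that reason, and these agreements say nothing about the lists. No named gene past 2-fold changed sign under the 8 scalings, units and length removal tried, but 827 of their values lay outside the counting interval of the reported one and 749 within it. Scaling alone could not reverse a gene past 2-fold, since library totals lower every log2 ratio by 0.35 and the other scalings move it less. Removing the length trend took rpl38, among the shortest, only from 1.96 to 1.11. Of 82 named genes at least 2-fold higher, 49 still were on library totals, 38 on FPKM with a pseudocount of 1 and 54 with the length trend removed. Of 59 lower, 59, 50 and 48 still were. The first of these was fixed in advance, because library totals only push ratios downward. No paired analysis was possible because the columns carry 1 value per group. For the same reason leaving out a replicate and DESeq2 were not run. A planned description of promoter motifs was not run, since no promoter sequences were used here. Depth limits genes under about 50 counts, whose counting intervals are wide.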

Other observations

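Some of the clearest differences lay in genes outside the 44 lists, and the following were chosen after their values were seen. The gene fcer2, named for a low-affinity IgE receptor of mammalian B cells, was at 92.3 counts in normoxia, 118 in moderate and 1364 in severe hypoxia, 15.3-fold higher in severe than in moderate (13.7 to 17.1). The early response receptor nr4a1 was at 76.7, 86.3 and 336 counts, 5.17-fold higher (4.50 to 5.95), and tac1, which encodes the precursor of substance P, at 43.0, 60.3 and 199, 4.37-fold (3.69 to 5.19). The symbol nmes1 was at 163, 289 and 1026, 4.71-fold (4.36 to 5.08). In all 4 the severe level was the highest of the 3. The detoxifying cytochrome cyp1a3 was at 605, 356 and 1508 counts, 5.62-fold higher (5.26 to 6.02). A gene listed as hsc70, the constitutive heat shock protein, was at 2929, 837 and 4355 counts, 6.90-fold higher (6.61 to 7.21). The far more abundant hspa8, also a symbol of the constitutive form, stood 1.24-fold higher. Near-identical copies share reads, and a shift of reads between these symbols was not tested.

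Some genes of DNA repair were lower. The Fanconi anaemia protein fancd2, which marks crosslinked DNA, was at 155, 551 and 103 counts, 4.02-fold lower (3.56 to 4.56), the mismatch repair gene msh6 at 221, 947 and 183, 3.91-fold (3.57 to 4.29), and the polymerase polq, which joins broken ends, at 25.7, 187 and 29.7, 4.74-fold (3.79 to 6.00). In contrast rad9b, of a DNA damage checkpoint clamp, was at 86, 33.3 and 89.3 counts, 3.56-fold higher. By the first-listed KEGG pathway of each row, the lowest of 90 medians was that of the Fanconi anaemia pathway, at -0.53 over 60 rows. Of these rows 18 were at least 2-fold lower and 1 higher, where all analysed rows had 10.5% lower and 8.73% higher. Base excision repair stood at 0.05 over 26 rows, with 1 higher and 1 lower. Nucleocytoplasmic transport stood at -0.51 over 158 rows, with 38 lower and 2 higher. The highest medians were those of the ribosome, at 0.90 over 237 rows but 0.25 with the length trend removed, and of ferroptosis, at 0.55 over 28 rows. Mitophagy stood at 0.43 over 45 rows, with 10 higher and 3 lower, and at 0.48 with the trend removed. The histone methyltransferase nsd2 was at 104, 698 and 107 counts, 4.93-fold lower (4.39 to 5.57), and uba1, the enzyme that activates ubiquitin, at 125, 2893 and 569, 3.83-fold lower (3.64 to 4.04).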
